A study of Rattus norvegicus with 6 samples.

Results

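Lysosomal hydrolases, the membrane proteins of the lysosome and the receptors that deliver hydrolases to it were followed in rat beta cells after a fast. A list of 44 genes was used, and a gene was taken where the platform annotation gave a probe set (a group of short probes against 1 transcript) that symbol alone. This held for 42 of the 44, among 14217 genes named in the same way on the array. Sgsh and Galns, both sulfatases, had no such probe set and were not analysed here. Where a gene had several probe sets, the one with the highest mean of the 6 arrays was used. The beta cells came from male Wistar rats, 10 weeks of age, which were either fasted for 24 h (3 isolates) or fed ad libitum (3 isolates). No allele or drug was used in either group. The labels give the beta cells as FACS-purified (fluorescence-activated cell sorting) and snap frozen at once. Each isolate was a pool of 5 rats, hybridized on 1 array. The spread between arrays is thus that between pools, not between animals.

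The lysosome is the acidic compartment in which proteins, glycans, lipids and whole organelles are broken down. Its hydrolases are made in the endoplasmic reticulum, tagged with mannose 6-phosphate in the Golgi and carried to the lysosome by mannose 6-phosphate receptors, while heavily glycosylated membrane proteins line the limiting membrane. In beta cells lysosomes also take up surplus insulin granules (crinophagy). Many lysosomal genes carry a short promoter element, the CLEAR element (coordinated lysosomal expression and regulation), which is bound by TFEB and TFE3, transcription factors that enter the nucleus when nutrients are scarce.

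The promoters of several of these genes are shown because they hold that element and none of the genes passed the thresholds given below. Windows of 300 bases, 250 before to 50 after the gene start, were held for 35 of the 44 genes (RefSeq, build GRCr8), of which 33 were measured. The core TCACGTG was searched on both strands, and the palindrome TCACGTGA, which contains it and reads the same on both strands. TCACGTG lay in the windows of 8 of the 33 measured genes, against 3.2% of all 33469 windows and 5.32% of the 11733 genes that were also named on the array. TCACGTGA lay in 6 of the 33, Ctsd, Galc, Lamp1, Cln3, Mcoln1 and Igf2r, against 0.777% of all windows and 1.49% of genes on the array. A match is a description of the letters and not of binding. The Lamp1 window (chr16:83075014-83075313, minus strand) held 5 such elements, and those of Ctsd (chr1:206968772-206969071, minus strand) and Mcoln1 (chr12:6358008-6358307, plus strand) held 2 each. The windows of Igf2r and Cln3, shown in part below, also held 2 each, and both of those in Igf2r were TCACGTGA. Smpd1 (chr1:169304522-169304821, plus strand), the gene with the smallest unadjusted p among those measured, held neither form. Capitals mark TCACGTG or its reverse complement in the 4 windows, written 5′ to 3′ along the gene.
Lamp1: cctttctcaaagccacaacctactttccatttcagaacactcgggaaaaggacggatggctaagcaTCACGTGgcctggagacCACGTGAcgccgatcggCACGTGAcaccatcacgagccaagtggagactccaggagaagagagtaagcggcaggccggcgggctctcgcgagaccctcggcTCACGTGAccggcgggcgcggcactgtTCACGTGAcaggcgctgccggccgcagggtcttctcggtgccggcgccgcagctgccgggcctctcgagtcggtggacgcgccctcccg
Ctsd: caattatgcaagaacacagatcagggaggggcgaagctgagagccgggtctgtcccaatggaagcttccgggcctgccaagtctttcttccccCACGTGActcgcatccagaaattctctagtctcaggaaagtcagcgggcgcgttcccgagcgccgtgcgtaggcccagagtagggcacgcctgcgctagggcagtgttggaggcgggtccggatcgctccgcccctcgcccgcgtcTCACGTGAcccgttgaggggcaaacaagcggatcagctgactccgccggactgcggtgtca
Mcoln1: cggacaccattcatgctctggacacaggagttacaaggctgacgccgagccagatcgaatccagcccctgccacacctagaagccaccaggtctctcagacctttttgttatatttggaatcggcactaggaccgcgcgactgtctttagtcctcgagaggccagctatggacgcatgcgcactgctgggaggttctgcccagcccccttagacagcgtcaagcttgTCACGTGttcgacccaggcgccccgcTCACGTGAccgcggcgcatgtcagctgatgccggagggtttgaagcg
Smpd1: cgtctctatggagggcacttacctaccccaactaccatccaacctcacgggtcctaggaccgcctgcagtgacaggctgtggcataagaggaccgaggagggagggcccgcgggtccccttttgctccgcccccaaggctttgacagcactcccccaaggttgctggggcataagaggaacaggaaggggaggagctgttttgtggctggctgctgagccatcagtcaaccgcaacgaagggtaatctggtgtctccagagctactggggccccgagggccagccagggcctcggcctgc

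Around the palindrome the flanks differ. Stretches of 40 bases from the windows of Igf2r (chr1:50526628-50526927, plus strand), Cln3 (chr1:190597880-190598179, minus strand) and Galc (chr6:123245510-123245809, minus strand) are shown for comparison with the elements of Lamp1, Ctsd and Mcoln1, and capitals mark TCACGTGA.
Igf2r: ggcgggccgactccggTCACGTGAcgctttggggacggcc
Cln3: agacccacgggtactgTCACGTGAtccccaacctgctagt
Galc: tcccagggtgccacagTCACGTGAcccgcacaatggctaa

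Values are linear intensities as the authors computed them, and a change is the log2 ratio of fasted over fed, fitted with limma on values floored at 3.27, their 10th percentile. A gene was counted as lower or higher where the fold was at least 1.5 (0.585 on the log2 scale) and the unadjusted p under 0.05, the thresholds used in the study. The paper reports a much smaller share of transcripts past these thresholds, nearly all of them lower. In the fit used here 8.43% of all probe sets were lower and 2.37% higher. Shares of all genes given below are thus those of this fit and not of the study. Tests were two-sided, intervals are 95% intervals of the log2 change from the same fit, and adjusted p is that of Benjamini and Hochberg over 31042 probe sets. With 3 arrays against 3, the number of arrays limits the precision. Brightness of probe sets serves only to choose or describe them, since intensities of different probe sets are not on 1 scale of transcript level.

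The arrays of the series differed in a few respects that bear on these genes. Median intensity was 17.1 to 21 on the arrays of fasted rats and 20.2 to 21.8 on those of fed rats, and the median log2 change over all genes was -0.19. It was -0.01 on quantile-normalized arrays and 0.03 on arrays scaled to their 75th percentile. Fasted replicate 1 correlated least with its own group (mean r = 0.908 across probe sets, which are not independent). It also had the highest ratio of 3′ to 5′ control probe sets, 2.40 for beta-actin and 1.22 for GAPDH, against at most 2.05 and 1.16 on the other 5 arrays. A 5S rRNA probe set measured 117.4, 59.8 and 71.8 in fasted and 33.4, 43.3 and 37.7 in fed rats, every fasted array above every fed one. Of 7 measured beta cell markers 0 passed the thresholds, and Ins1 was near the top of the scale on every array (5719 to 6299). Markers of myeloid cells, whose lysosomes are rich in some of the same proteases, were low, with summed intensities over all 16 markers of 204 to 215 in fasted and 185 to 250 in fed rats, and 0 of 16 passed. Among them Cd68 was below the floor of 3.27 on 2 of the 6 arrays and Laptm5 on 4. Of the 16, 3 were brighter than the median probe set. Csf1r measured 34.7, 56.7 and 68.5 in fasted and 42.9, 64.3 and 46.9 in fed rats. Acinar enzymes were bright on every array (summed intensity of 9 markers 46750 to 53670 in fasted and 50680 to 54190 in fed rats, 0 of 9 passed), and of 4 duct markers 1, Krt19, was higher (88.9, 80.3 and 88 in fasted and 56.8, 46.4 and 55.6 in fed rats). The other duct markers did not pass, Krt7 with a log2 change of 0.36, Cftr with -0.25 and Muc1 with -0.65. For Krt7 every fasted array lay above every fed one, for Muc1 below, and for Cftr the groups overlapped. The part of the 5S rRNA signal and of these cells in the results below was not tested. Alpha cell transcripts were highest in fed replicate 2, as given below for Ctsh and Arsb.

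After the fast none of the 42 lysosomal genes was lower or higher at the thresholds of the study. Among all 14217 genes 9.51% were lower and 2.29% higher by the same rule, and among the 9183 genes brighter than the median probe set, to which 39 of the 42 belong, 11.1% were lower and 1.49% higher. Before the condition on fold, 1 of the 42 had an unadjusted p under 0.05 and a lower level (Smpd1) and 4 a higher level (Ctsl, Asah1, Lamp2 and Igf2r), against 14.9% lower and 3.64% higher among all genes. After adjustment 0 of the 42 passed, as did 0 of all probe sets in this fit, and the smallest adjusted p among the 42 was 0.203 from limma. The median log2 change of the 42 genes was -0.01, against -0.19 over all genes and -0.22 over the brighter ones. Fitted changes were above 0 for 20 of the 42 (47.6%), for 33% of all genes and for 28.2% of the brighter ones. On quantile-normalized arrays 30 of the 42 and 48.5% of all genes were above 0, and with the 75th percentile as the scale 34 and 52.8%, so the sign of small changes depended on the scaling. The calls over all genes moved with it too, with 1352 lower and 326 higher in the fit used here, 728 and 573 on quantile-normalized arrays, and 638 and 671 on those scaled to the 75th percentile. The median of the 42 lay above that of all genes in each of these 3 fits, by 0.18, 0.12 and 0.20. In the bulk RNA of a sorted pool, fewer cells of a type and less RNA per cell cannot be told apart.

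**Figure D1:**
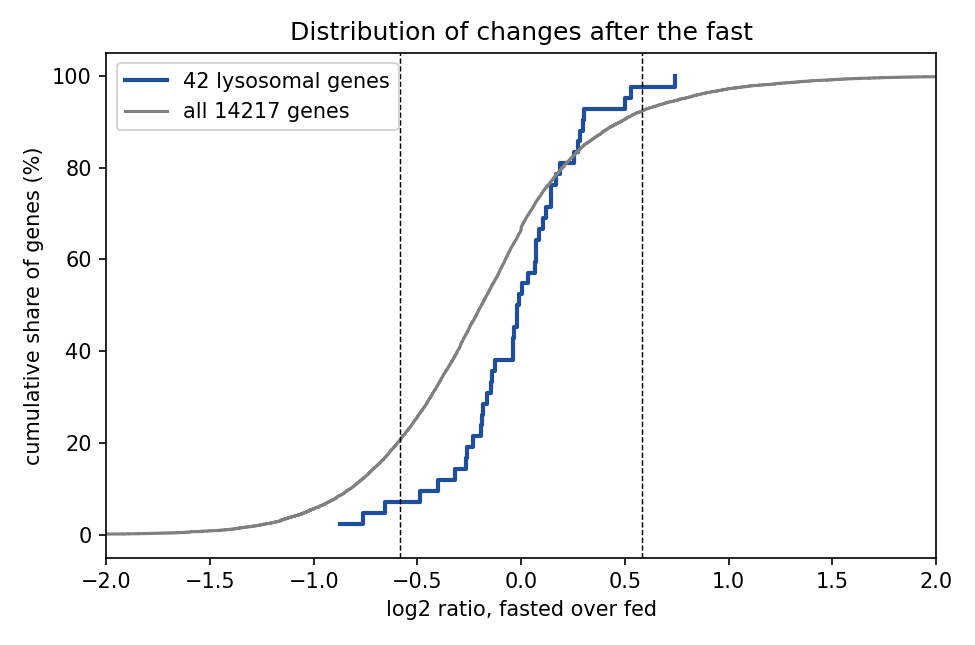
Cumulative share of genes (%) against the log2 ratio (fasted over fed), shown for the 42 lysosomal genes (blue) and all 14217 genes (grey), with dashed lines at 1.5-fold. The fitted change was at least 1.5-fold lower for 3 of the 42 (7.14%) and for 20.6% of all genes, and at least 1.5-fold higher for 1 (2.38%) and 7.6%.

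Missing the threshold does not show that a level stayed the same, and the intervals of the changes show how far each gene could have moved. For 22 of the 42 (52.4%) the 95% interval of the log2 change lay wholly within 1.5-fold in either direction. The same held for 18.4% of all genes and for 26.4% of the brighter ones. The share varied with brightness, with 9 of 9 bright acinar markers and 1 of 16 myeloid markers, which were low. The 42 genes were not compared with genes of matched brightness, so these shares do not set them apart from other bright genes. By class the 22 were 6 of 11 proteases, 5 of 10 glycosidases and 1 of 3 sulfatases. They also held 2 of 7 lipid hydrolases and activators, 6 of 8 membrane proteins and 2 of the 3 genes of sorting receptors and granulin. The median log2 change was -0.04 for proteases, -0.14 for glycosidases, 0.00 for sulfatases, 0.14 for lipid hydrolases and activators, 0.05 for membrane proteins and 0.19 for sorting receptors and granulin. Glycosidases held 9 of 10 genes with a change below 0, and their median was 0.07 on quantile-normalized arrays and 0.11 on those scaled to the 75th percentile. No test between classes was run.

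**Figure D2:**
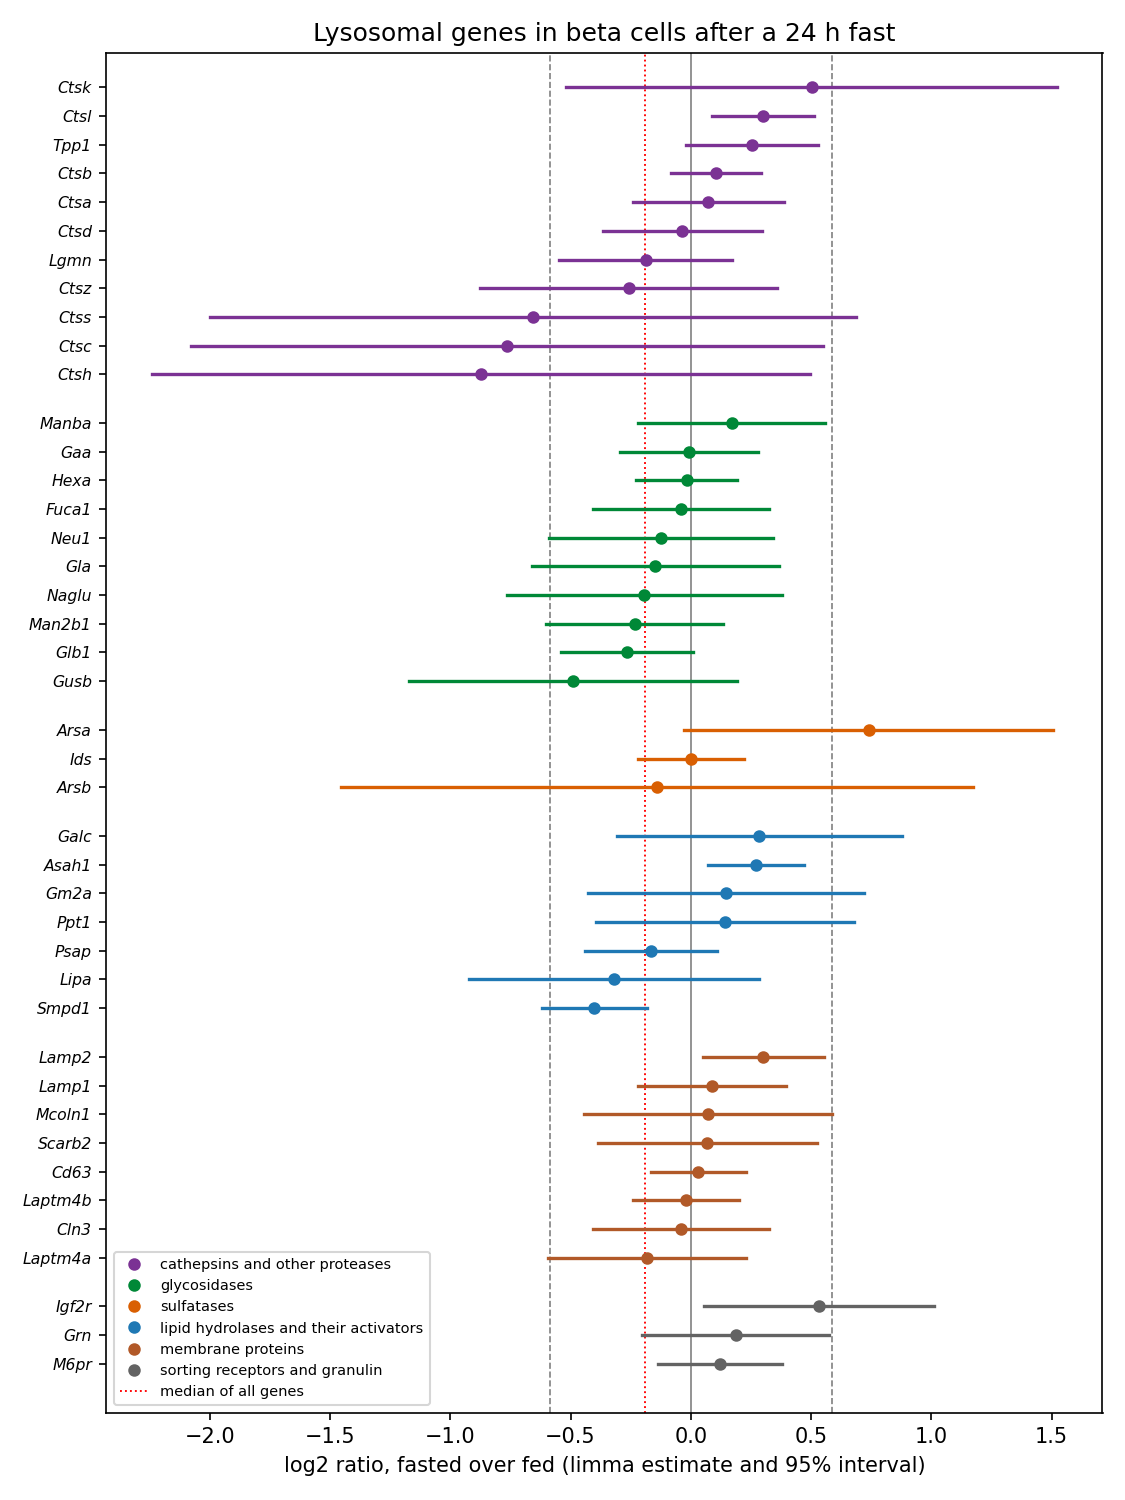
Log2 ratio (fasted over fed) with its 95% interval for the 42 lysosomal genes, grouped by class, with dashed lines at 1.5-fold and a dotted line at the median of all genes (-0.19). Intervals are narrow for genes such as Cd63 (-0.17 to 0.23) and wide for Ctsh (-2.24 to 0.49), Ctsc and Ctss.

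The cathepsins and other proteases cut the proteins delivered to the lysosome. Cathepsin B (Ctsb), a cysteine protease, had intensities of 1722, 1982 and 1863 in fasted and 1682, 1706 and 1784 in fed rats, which overlap. Its log2 change was 0.10 with an interval of -0.08 to 0.29. Cathepsin L (Ctsl), a cysteine endopeptidase, measured 933, 1016 and 868 in fasted and 764, 801 and 719 in fed rats. Every fasted array lay above every fed one. The log2 change of Ctsl was 0.30 (SE 0.09, interval 0.09 to 0.51, adjusted p = 0.263 from limma), a fold of 1.23, and it had an unadjusted p just over 0.05 without fed replicate 3. A dimmer probe set of Ctsl measured 52.5, 111 and 113 in fasted and 93.8, 104 and 85.4 in fed rats (log2 change -0.11), and over both probe sets the mean change was 0.09. Tripeptidyl peptidase 1 (Tpp1), which removes tripeptides from protein ends, measured 361, 437 and 437 in fasted and 314, 353 and 368 in fed rats, where 1 fasted value lay within the fed range. Its log2 change of 0.25 had an adjusted p of 0.353.

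Cathepsin D (Ctsd), the aspartic protease of the lysosome, measured 191, 237 and 262 in fasted and 223, 231 and 248 in fed rats, with the fasted arrays on both sides of the fed ones. Its log2 change was -0.04 (interval -0.37 to 0.29). Cathepsin A (Ctsa), a serine carboxypeptidase that also protects beta-galactosidase and neuraminidase, had a log2 change of 0.07 (-0.24 to 0.39). Legumain (Lgmn), which cuts after asparagine, had a log2 change of -0.19 (-0.55 to 0.17), which was 0.06 on arrays scaled to the 75th percentile. A dimmer probe set of Lgmn had 0.33, and the mean over both was 0.07.

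The remaining cathepsins gave dim or scattered signals. Cathepsin C (Ctsc), a dipeptidyl peptidase that activates granule proteases of immune cells, measured 5.09, 9.16 and 19.9 in fasted and 18.6, 15.3 and 15.9 in fed rats. Cathepsin S (Ctss), known for its part in antigen presentation, measured 2.86, 11.4 and 8.69 in fasted and 14.9, 10.9 and 7.78 in fed rats. In both genes fasted replicate 1 was the lowest array, and the groups overlapped. Cathepsin K (Ctsk), the collagen-degrading protease of osteoclasts, was below the floor on all arrays except fasted replicate 1 (9.31), so its fitted change has no clear direction. The exopeptidase cathepsin Z (Ctsz) measured 27.4 to 33.5 in fasted and 30.3 to 49 in fed rats. Without fasted replicate 3, Ctsc passed both thresholds as lower, with a log2 change of -1.28 (adjusted p = 0.129 from limma).

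Cathepsin H (Ctsh), an aminopeptidase, was set apart by 1 array. It measured 40.7, 71.3 and 63.3 in fasted and 77.9, 250.3 and 58 in fed rats, so that fed replicate 2 stood far above the other 5 arrays. Its log2 change was -0.87 with all arrays, -0.24 without fed replicate 2 and -1.30 without fed replicate 3. Arylsulfatase B (Arsb), which removes sulfate from dermatan and chondroitin sulfate, had the same array on top, with 131, 150 and 168 in fasted and 154, 373 and 77.1 in fed rats. Its other probe set, at 15.9, 24.7 and 44.6 in fasted and 40.6, 124 and 25.9 in fed rats, also peaked in fed replicate 2. The log2 change of Arsb was -0.14 with all arrays, 0.45 without fed replicate 2 and -0.69 without fed replicate 3, its lowest array. Of the 42 genes these were the 2 in which fed replicate 2 was over 2 times the higher of the other fed arrays.

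Some markers of other cell types were also highest in that array. Glucagon (Gcg) measured 4958, 5769 and 5261 in fasted and 4426, 7629 and 3532 in fed rats. Irx2, a transcription factor of alpha cells, measured 35, 18.9 and 17.6 in fasted and 12, 86.7 and 3.75 in fed rats, and pancreatic polypeptide (Ppy) was 2997 to 3536 in fasted and 2057 to 4270 in fed rats. Peptide YY (Pyy) reached 1690 in fed replicate 2. Of the 4 markers of delta and PP cells, Ppy and Pyy peaked there, while somatostatin (Sst, 4200, 3386 and 4122 in fasted and 3973, 4182 and 3854 in fed rats) and the delta cell factor Hhex (34.4, 12.6 and 24.3 in fasted and 26.5, 18.5 and 19.4 in fed rats) were highest in fasted replicate 1. Of the 4 alpha cell markers listed, Gcg and Irx2 were measured, and 0 of the 2 passed the thresholds between the groups. Of 7 fibroblast markers 4 were highest in fed replicate 2, among them decorin (Dcn), a matrix proteoglycan, at 19.3, 18.2 and 13.2 in fasted and 26.8, 95.6 and 9.31 in fed rats. Over the 7, summed intensity was 179 to 221 in fasted and 155 to 420 in fed rats, and 0 passed. Summed intensity of the 16 myeloid markers was 215.3, 212.7 and 203.6 in fasted and 185.4, 249.5 and 190.7 in fed rats. Of these 16 markers 3 were highest in fed replicate 2. For 8 endothelial markers the sums were 257.7, 221.1 and 270.4 in fasted and 356.3, 316.9 and 177.7 in fed rats. Of the 8, 2 were highest in fed replicate 2 and 5 in fed replicate 1. The part of alpha, PP, fibroblast, myeloid or endothelial cells in the levels of Ctsh and Arsb was not tested.

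**Figure D3:**
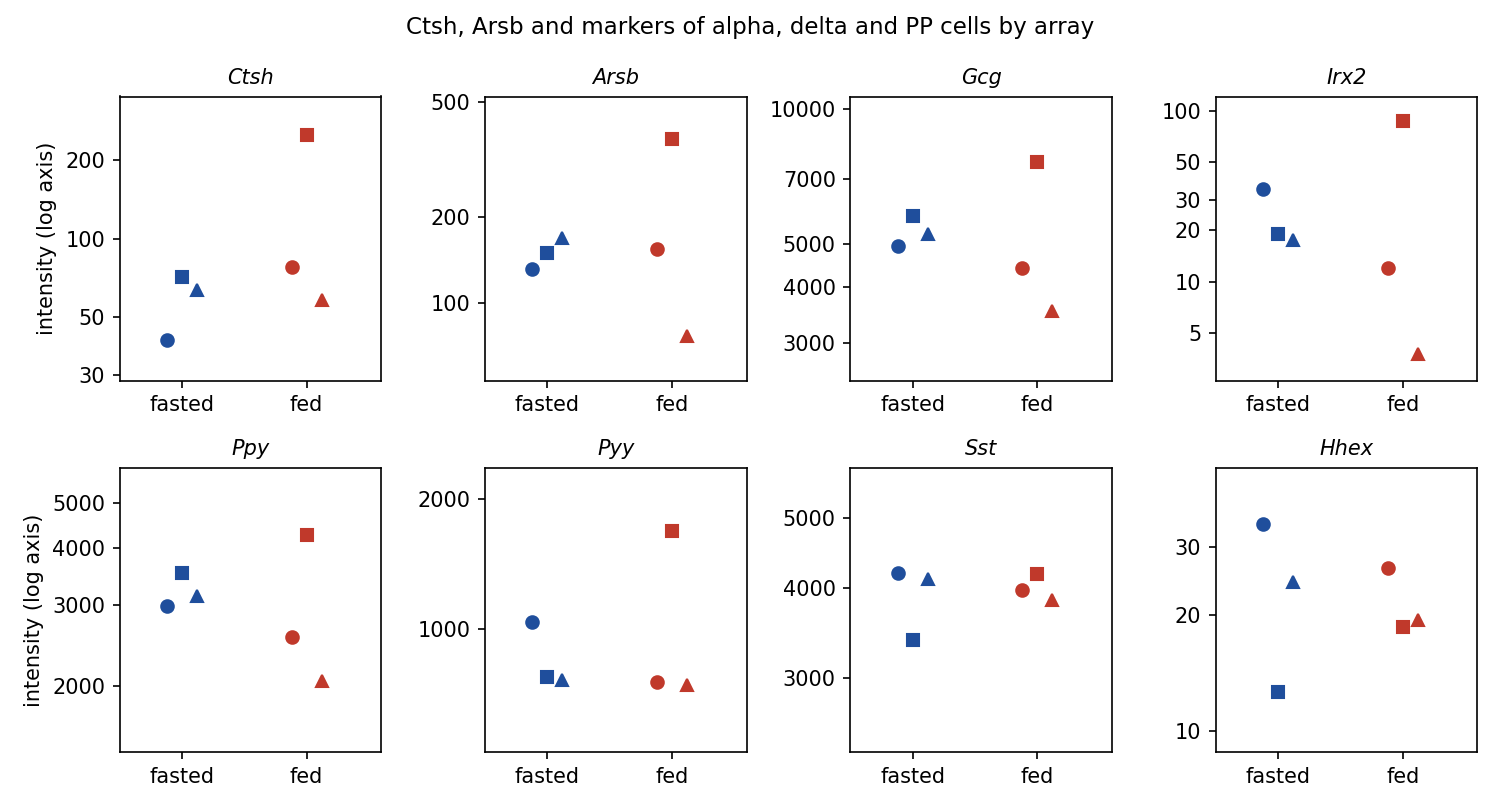
Intensity (log axis) of Ctsh and Arsb and of the measured markers of alpha cells (Gcg, Irx2) and of delta and PP cells (Ppy, Pyy, Sst, Hhex) on each array, fasted (blue) and fed (red), with circles, squares and triangles for replicates 1, 2 and 3. The square of the fed group (fed replicate 2) is the highest point for Ctsh (250.3), Arsb, Gcg (7629), Irx2, Ppy and Pyy, but not for Sst and Hhex.

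Glycosidases remove sugars from glycoproteins, glycolipids and glycogen, and 5 of the 10 had an interval within 1.5-fold. Hexosaminidase A (Hexa), which degrades GM2 ganglioside, measured 496, 419 and 446 in fasted and 462, 449 and 463 in fed rats, with the fasted arrays above and below the fed ones. Its log2 change was -0.02 (interval -0.23 to 0.19). Beta-mannosidase (Manba) measured 294, 438 and 411 in fasted and 340, 319 and 343 in fed rats, where fasted replicate 1 was the lowest array and the other fasted arrays the highest. The change was 0.17 (-0.22 to 0.56). Acid alpha-glucosidase (Gaa), which releases glucose from glycogen, had a log2 change of -0.01 (-0.29 to 0.28) and alpha-fucosidase (Fuca1) by -0.04 (-0.41 to 0.32).

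Beta-galactosidase (Glb1) was the glycosidase whose groups did not overlap. It measured 91.2, 104 and 92.7 in fasted and 121, 109 and 115 in fed rats, each fasted array below each fed one. The log2 change of Glb1 was -0.27 (SE 0.11, interval -0.54 to 0.01, adjusted p = 0.345 from limma), and it was -0.06 on quantile-normalized arrays and -0.02 on those scaled to the 75th percentile. Beta-glucuronidase (Gusb) measured 25.8, 42.6 and 46.1 in fasted and 51.3, 44.6 and 61.1 in fed rats, which overlap by 1 array, and its change was -0.49 (-1.17 to 0.19). The others were alpha-mannosidase (Man2b1) with -0.23, alpha-N-acetylglucosaminidase (Naglu), an enzyme of heparan sulfate breakdown, with -0.20, alpha-galactosidase (Gla) with -0.15 and the sialidase Neu1 with -0.13. In all of these 4 the groups overlapped, and the lower bounds of their intervals ran from -0.59 to -0.77. Dimmer probe sets had log2 changes of 0.42 for Neu1, -0.37 for Gla and -0.47 for Man2b1. The means over both probe sets were 0.15, -0.26 and -0.35.

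Sulfatases strip sulfate from glycosaminoglycans and sulfolipids. Iduronate 2-sulfatase (Ids) measured 1308, 1539 and 1398 in fasted and 1438, 1488 and 1311 in fed rats, and its log2 change was 0.00 (-0.22 to 0.22). Arylsulfatase A (Arsa), which degrades sulfatide, measured 313, 135 and 156 in fasted and 118, 102 and 118 in fed rats. Each fasted array lay above each fed one, with fasted replicate 1 far above the rest. The log2 change was 0.74 (SE 0.32, interval -0.03 to 1.51, adjusted p = 0.344 from limma), and it was 0.37 without fasted replicate 1. A dimmer probe set of Arsa ran the other way, at 9.79, 23.3 and 33.7 in fasted and 33.2, 34.6 and 31 in fed rats (log2 change -0.74), and on it fasted replicate 1 was the lowest. Averaged over both probe sets the change of Arsa was 0.00. The brighter probe set passed both thresholds as higher after either rescaling of the arrays (0.92 and 0.98) and in 5 further fits, including that without fasted replicate 2 (0.98).

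The enzymes of sphingolipids, the lipids built on sphingosine, lay on both sides of 0. Acid sphingomyelinase (Smpd1), which makes ceramide from sphingomyelin, measured 309, 362 and 364 in fasted and 456, 454 and 453 in fed rats. Each fasted array was below the fed ones, which lay within a narrow range. The log2 change was -0.40 (SE 0.09, interval -0.62 to -0.18, adjusted p = 0.203 from limma), a fold of 0.757. It ran from -0.44 to -0.33 when 1 array was left out, and its change was -0.16 on arrays scaled to the 75th percentile. Acid ceramidase (Asah1), which degrades ceramide, measured 565, 610 and 632 in fasted and 515, 468 and 513 in fed rats. Here each fasted array was above the fed ones, with a log2 change of 0.27 (SE 0.08, interval 0.07 to 0.47, adjusted p = 0.270 from limma). A dimmer probe set of Asah1 measured 180, 427 and 436 in fasted and 304, 342 and 355 in fed rats, which again put fasted replicate 1 lowest and the other fasted arrays highest, and over both probe sets the mean change of Asah1 was 0.11.

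Prosaposin (Psap), the precursor of the saposins that help lipids reach their hydrolases, measured 838, 1091 and 1045 in fasted and 1087, 1096 and 1132 in fed rats. Only fasted replicate 1 lay well below the others, and the change was -0.17 (-0.44 to 0.11). The GM2 activator Gm2a had a log2 change of 0.15, palmitoyl-protein thioesterase (Ppt1) by 0.14 and galactosylceramidase (Galc), which degrades a lipid of myelin, by 0.28. Acid lipase (Lipa), which releases cholesterol from its esters, had -0.32. All 4 overlapped between the groups, and their intervals reached past 1.5-fold.

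**Figure D4:**
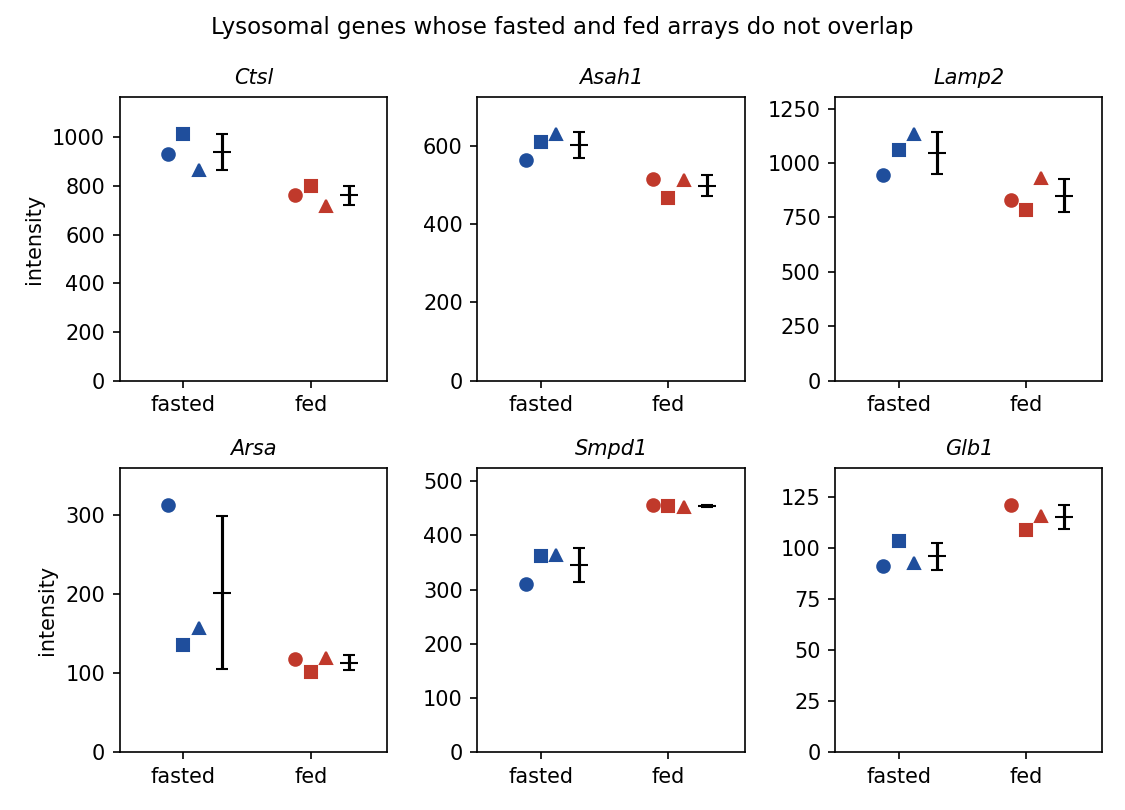
Intensity by array for the 6 lysosomal genes whose fasted (blue) and fed (red) arrays did not overlap, with mean and SD beside the points (n = 3 each) and circles, squares and triangles for replicates 1, 2 and 3. Ctsl, Asah1, Lamp2 and Arsa are higher and Smpd1 and Glb1 lower on every fasted array, with means of 345 in fasted and 454 in fed rats for Smpd1.

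In total 4 of the 42 genes (9.52%) had every fasted array above every fed one and 2 (4.76%) every fasted array below. Among all genes these shares were 5.76% and 21.2%.

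Membrane proteins of the lysosome had intervals within 1.5-fold for 6 of 8 genes. The tetraspanin Cd63 measured 2568, 3029 and 2876 in fasted and 2757, 2801 and 2716 in fed rats, and its log2 change was 0.03 (-0.17 to 0.23). Lamp1, a major glycoprotein of the limiting membrane, measured 1501, 1163 and 1117 in fasted and 1239, 1125 and 1164 in fed rats, with fasted replicate 1 above the rest and the other arrays mixed. The change of Lamp1 was 0.09 (-0.22 to 0.39). Dimmer probe sets had log2 changes of -0.05 and -0.68, and the mean over all 3 was -0.22 for Lamp1. Its partner Lamp2, of which 1 isoform is the receptor of chaperone-mediated autophagy, measured 944, 1060 and 1135 in fasted and 829, 785 and 932 in fed rats. Each fasted array was above each fed one, with a log2 change of 0.30 (SE 0.10, interval 0.05 to 0.55, adjusted p = 0.289 from limma). Its unadjusted p was over 0.05 without fasted replicate 2 or 3 and without fed replicate 1 or 2. A dimmer probe set of Lamp2 had the same sign (0.25), with fasted replicate 1 the lowest of the 6 arrays.

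The calcium channel Mcoln1 measured 57.6, 65 and 91.7 in fasted and 63.8, 61.8 and 75.1 in fed rats, which overlap (log2 change 0.07, interval -0.44 to 0.59). Scarb2 (LIMP-2), which carries glucocerebrosidase to the lysosome, had a log2 change of 0.07 and Cln3, the protein lost in juvenile Batten disease, by -0.04. The 4-span proteins Laptm4a and Laptm4b had a log2 change of -0.18 and -0.02. For Laptm4a the fasted arrays were at 796, 1212 and 1174 and the fed ones at 1133, 1177 and 1240, with fasted replicate 1 the lowest of the 6. A dim probe set of Cln3 had 16.1, 9.04 and 20.7 in fasted and 28.8, 29.8 and 24.3 in fed rats (log2 change -0.93, interval -1.86 to 0.00). Another was at 42.7, 20.3 and 45.7 in fasted and 38.4, 47.1 and 48.1 in fed rats (-0.38), and the mean over all 3 probe sets of Cln3 was -0.45. The brightest one, used here, ranged over 129 to 138 in fasted and 113 to 160 in fed rats, and its sign turned on rescaled arrays (0.14 and 0.20).

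The receptors that carry tagged hydrolases come in a small and a large form. The small receptor M6pr measured 718, 773 and 861 in fasted and 714, 658 and 791 in fed rats, with overlapping groups and a log2 change of 0.12 (-0.14 to 0.38). The large receptor Igf2r, which also takes up insulin-like growth factor 2, measured 198, 222 and 142 in fasted and 148, 115 and 122 in fed rats. The groups overlapped by fasted replicate 3. The log2 change of Igf2r was 0.53 (SE 0.20, interval 0.05 to 1.01, adjusted p = 0.307 from limma), a fold of 1.45, and without fasted replicate 3 it was 0.72 (adjusted p = 0.0895 from limma). It passed both thresholds as higher in that fit, without fed replicate 1 (0.64) and under either rescaling of the arrays (0.69 and 0.78). It was 0.40 without fasted replicate 2, and its unadjusted p was over 0.05 without fasted replicate 1 or 2 and without fed replicate 2 or 3. Its other probe set measured 50.2, 100 and 103 in fasted and 98.6, 92.5 and 101 in fed rats (log2 change -0.28), with fasted replicate 1 again the lowest, and over both probe sets the mean change of Igf2r was 0.13. Progranulin (Grn), a secreted and lysosomal protein cut into granulins, measured 897, 666 and 716 in fasted and 694, 556 and 754 in fed rats, which overlap (0.19, interval -0.20 to 0.57).

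The signal of the lysosomal genes on fasted replicate 1 differed from that on the other fasted arrays. It was the lowest of the 3 fasted arrays for 29 of the 42 genes and the highest for 10, and over all 6 arrays it was the lowest for 22. The same counts were not made over all genes, for which fasted replicate 1 also had the lowest median. The median level of the 42 genes, relative to the mean of the 6 arrays, was -0.15, 0.04 and 0.04 on fasted replicates 1, 2 and 3 and -0.01, -0.01 and 0.08 on fed ones. Over all genes the same medians were -0.23, -0.10 and 0.04 on fasted and 0.11, 0.09 and 0.10 on fed arrays. Without fasted replicate 1 the median log2 change of the 42 genes was 0.04, and that of all genes -0.13. Among 14 of the genes there were 16 further probe sets, of which 0 passed both thresholds (among all probe sets 8.43% were lower and 2.37% higher), 7 had the sign of the probe set used, and 11 were lower on fasted replicate 1 than on both other fasted arrays. The part of its 3′ to 5′ ratios in these differences was not tested.

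**Figure D5:**
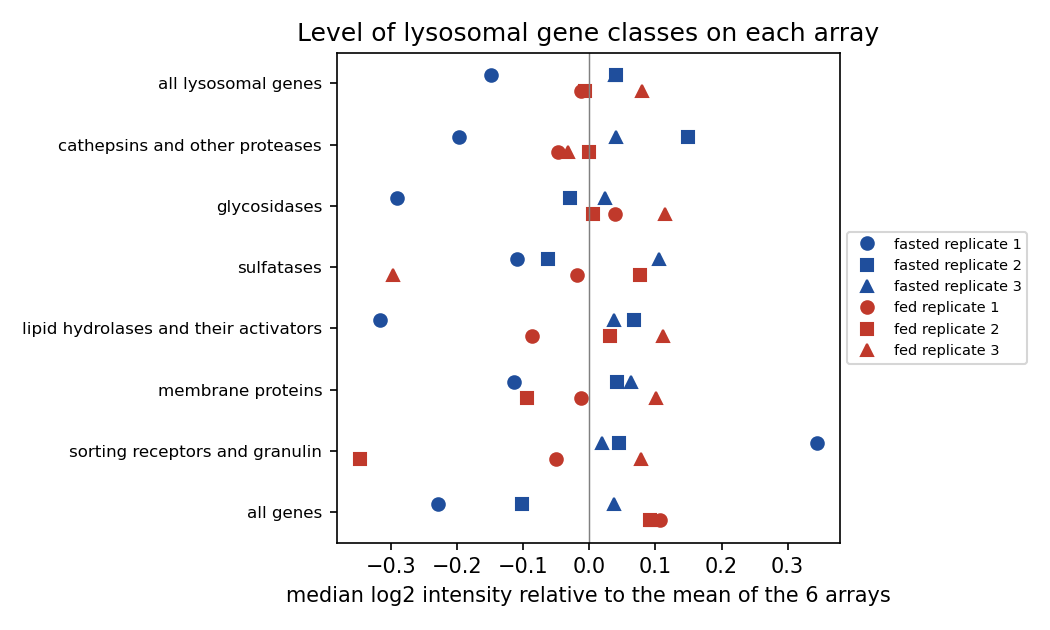
Median log2 intensity of each class on each array, relative to the mean of the 6 arrays, for fasted (blue, upper row) and fed (red, lower row) rats. Fasted replicate 1 lies at -0.29 for glycosidases and -0.32 for lipid hydrolases and activators, and at 0.34 for sorting receptors and granulin, where fed replicate 2 is at -0.35.

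Genes with and without the promoter element were set side by side. The 8 genes with TCACGTG had changes from -0.27 (Glb1) to 0.53 (Igf2r), with a median of 0.03, and 0 of them passed the thresholds. The measured genes without it had a median of -0.13. Split by TCACGTGA, the medians were 0.08 with and -0.13 without it. No test was run on this split.

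Of the factors that bind the element, TFEB and TFE3 differed in sign. Tfeb measured 191, 172 and 114 in fasted and 99.9, 140 and 101 in fed rats, which overlap, and the change was 0.47 on the log2 scale (interval -0.11 to 1.05). Tfe3 measured 94.2, 128 and 148 in fasted and 166, 192 and 155 in fed rats, each fasted array below the fed ones, with a log2 change of -0.49 (interval -0.96 to -0.03, adjusted p = 0.319 from limma). Mitf, of the same family, was dim and lower at both thresholds, at 8.39, 8.10 and 21.9 in fasted and 29, 24.6 and 28.1 in fed rats (log2 change -1.25, adjusted p = 0.307). Zkscan3, which represses lysosomal genes in human cells, was also lower, at 27.6, 36 and 55.3 in fasted and 74.3, 71.6 and 60.7 in fed rats (-0.85, adjusted p = 0.285). The transcript of the GTPase Rraga, which recruits the nutrient-sensing kinase complex mTORC1 to the lysosome, was at 747, 739 and 815 in fasted and 1093, 963 and 1030 in fed rats, with a log2 change of -0.42 (interval -0.62 to -0.23, adjusted p = 0.176 from limma). Its relative Rragd had 0.41. Of 12 regulators measured 2 were lower and 0 higher, against 9.51% and 2.29% of all genes.

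Other lysosomal genes, from 4 lists of 94 in all, were counted by the same rule. Of the 79 measured 5 (6.33%) were lower and 1 (1.27%) higher, against the 9.51% and 2.29% of all genes. Of 22 other hydrolases 0 passed, with a median log2 change of -0.01. Of 23 further membrane proteins and transporters 3 were lower and 0 higher (median log2 change -0.02). These 3 were the lipid transporter Abca2 (log2 change -1.59), the amino acid sensor Slc38a9 (-1.13) and the tetraspanin Cd9 (-1.02), and Slc38a9 was near the floor in fasted rats (3.47, 3.11 and 1.49). Of 22 genes of tagging and sorting 0 were lower and 1 higher, the clathrin adaptor subunit Ap1g1, at 106, 84.6 and 63.6 in fasted and 47.6, 52.6 and 64.2 in fed rats (0.61, adjusted p = 0.313 from limma). The cholesterol-binding protein Npc2 measured 460, 484 and 468 in fasted and 283, 431 and 350 in fed rats, 0.43 on the log2 scale (interval 0.05 to 0.81). The counts over the 79 genes ranged from 1 to 9 lower and from 0 to 5 higher when 1 array was left out, with 9 lower and 5 higher without fasted replicate 3 and 1 lower and 0 higher without fed replicate 1 or fed replicate 2. In the same fits 18.7% of all genes were lower and 4.94% higher without fasted replicate 3, and 4.95% and 7.81% were lower without fed replicate 1 and without fed replicate 2.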

How the data were processed

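The deposited intensities came from dChip, run by the authors, which fits a model to the probes of a probe set. They normalized to the array of median intensity and took mismatch hybridization as background. The dChip version is not given in the sources used here. Scans were not used, so no other background correction was tried. The 57 control probe sets served only for 3′ to 5′ ratios and the 5S rRNA signal. Intensities were floored at 3.27 (10th percentile), which understates changes of dim probe sets, and log2 values of 31042 probe sets entered limma 3.58.1 (R 4.3.3) (2 groups, no block, intensity trend, two-sided). Of these probe sets 20826 carried 1 symbol, 436 several and 9780 none, and only the first were named. The gene list, classes, other lists and tests were chosen with earlier results of these data known. The rule for named genes took every gene past both thresholds, the 2 brightest of each class and the 3 with the largest moderated t. Values by array of further genes, Npc2 among them, were added after they had been seen. Alternatives were a higher floor (7.53, 25th percentile), the floor value as a pseudocount instead, quantile-normalized arrays, arrays scaled to their 75th percentile, dim probe sets left out, no intensity trend, robust variance, the replicate number as a block, the mean over a gene's probe sets, and each array left out. They were run on the other lysosomal genes after the data were seen. Scan dates were not used. Python 3.11.15 and matplotlib 3.10.9 made the figures.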

Additional observations from a re-analysis of the deposited data

How the results depend on the processing

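Of the 42 lysosomal genes 0 were lower in each fit that kept all 6 arrays, where 4.49% to 12.9% of all genes fitted were lower. When 1 array was left out 0 to 1 were lower, against 4.95% to 18.7% of all genes. The 1 was Ctsc, a dim probe set, without fasted replicate 3, where 18.7% of all genes were lower. The count of higher ones was 1 with a pseudocount, with dim probe sets left out, with robust variance and with the replicate block (Arsa each time). In these fits 2.82%, 2.16%, 2.93% and 2.03% of all genes fitted were higher, and the fit without dim probe sets held 39 of the 42. The count was 2 under either rescaling, by quantiles or by the 75th percentile (Arsa and Igf2r), where 4.03% and 4.72% of all genes were higher. It was 0 to 1 when 1 array was left out (1.35% to 4.94% of all genes). No fit gave a lysosomal gene an adjusted p under 0.05 in limma, although 133 of all probe sets passed with dim ones left out, 88 with robust variance, 83 with the pseudocount and 1 with the higher floor, and the smallest adjusted p among the 42 ran from 0.0895 (Igf2r, without fasted replicate 3) to 0.547. Without the intensity trend the unadjusted p from limma was 0.0864 for Ctsl, 0.102 for Asah1 and 0.105 for Lamp2, all over 0.05. The median log2 change of -0.01 was 0.11 on quantile-normalized arrays and 0.23 on those scaled to the 75th percentile, and -0.03 to 0.04 when 1 array was left out. Rescaling changed the sign of 10 and 14 of the 42 changes, all of them of genes past no threshold. Of the 79 other lysosomal genes 3 were lower under either rescaling. With dim probe sets left out 61 of the 79 remained, of which 3 were lower. The count higher was 3 and 4 after the rescalings, and 0 with a pseudocount, without the intensity trend and with the replicate block. Left-out arrays gave 1 to 9 lower and 0 to 5 higher. Deviations of arrays with the same replicate number correlated at 0.00, 0.01 and -0.05, so no array-wide deviation shared by number was seen. Whether isolates of the same number were prepared together cannot be read from these values. The 3 arrays per group and, for the 3 genes dimmer than the median probe set, the low signal limited what could be detected.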
